A study of Mus musculus with 40 samples.

Results

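The 3 CD11b+ samples from U87-MG tumors of vehicle-treated nude mice were compared with the 3 CD11b+ samples from tumor-free brains of C57BL/6 mice, that is 6 of the 40 samples of the series, chosen by their labels and not by any measured value. The study asked how integrin-blocking peptides act on brain myeloid cells in glioma, and this comparison asks how near to resting microglia the cells of the human tumor stay before any peptide is given. The U87-MG group came from male Athymic Nude-Foxn1nu mice of 10 to 12 weeks. They carried U87-MG RFP+ human glioblastoma cells in the right striatum and received water, the vehicle, into the tumor from an osmotic pump until 21 days post-implantation (DPI). U87-MG is an established human glioblastoma line, so the tumor was a xenograft of 1 line. Nude mice lack a functional thymus and therefore most mature T cells, but they keep their innate immune cells. The naive group came from male C57BL/6 mice of the same age range, which had neither tumor nor pump. In both groups CD11b+ cells were FACS-sorted from dissociated hemispheres, 2 animals were pooled per sample, and polyadenylated RNA was sequenced. Naive nude mice were not analysed here, so U87-MG vehicle and C57BL/6 naive differ in the tumor, the pump, the strain, the state of host immunity and the table in which their values were deposited. These cannot be told apart in any difference given below.

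CD11b is an integrin subunit carried by microglia, monocytes, macrophages, neutrophils and part of the NK cells. Microglia are the resident macrophages of the brain. At rest they express a typical set of surface sensors, among them the purinergic receptor P2ry12 and the fractalkine receptor Cx3cr1, which is kept up by TGF-beta signalling and the transcription factor Sall1. Microglia tend to lose this set in injury, neurodegeneration and glioma, where they also turn on lipid-handling and phagocytic genes and where monocytes from the blood settle in the tumor and become macrophages.

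The values were the deposited normalised levels, from which a constant of 2 was subtracted to return to the scale of RPKM, that is reads per kilobase of transcript, scaled to the size of the library. They were scaled between the tables by the median ratio to the mean sample over 8888 genes and compared as log2(RPKM + 1), a scale that understates the change of low genes. Read counts, and with them the depth, are unknown. Of 21826 protein-coding genes, 9645 had a mean of at least 1 RPKM over the 6 samples and were compared. A gene is called higher or lower below where the group means differed at least 2-fold on this scale and the 3 U87-MG vehicle samples did not overlap the 3 naive samples. This is a rule of size with no p-value, because the tables were normalised separately. In the C57BL/6 table the replicate differences filled 7 of the 8 dimensions that its samples allow, with a smallest singular value of 1.48% of the largest, against all 6 of 6 and 29.9% in the U87-MG table. The spread among the naive samples may therefore not be that of independent samples, and counts without overlap are to be read with that limit. GL261 vehicle, 3 samples of CD11b+ cells from mouse GL261 gliomas in C57BL/6 mice at 21 DPI, served as a yardstick. They share their table with the naive samples, so both tumors are set against the same naive samples. A further table held 4 vehicle samples at 28 DPI, 1 animal each, labelled as nude although the study's methods place GL261 in C57BL/6 mice. The methods also state that control groups of the anti-PD-1 experiment were injected with IgG. By a rule chosen after the values were seen, 9 genes set all 9 U87-MG samples apart from all 12 samples of the C57BL/6 table as high against absent. On 8 of these, all but Colec12, the 4 libraries labelled nude lay with the C57BL/6 samples, and they are used below only beside the other groups.

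Across all compared genes the U87-MG vehicle cells lay closer to naive cells than the GL261 vehicle cells did. The median absolute difference from naive was 0.280 on the log2 scale for U87-MG vehicle and 0.522 for GL261 vehicle. Samples of 1 group differed from each other by medians of 0.070 to 0.092 among the naive, 0.116 to 0.125 among the U87-MG vehicle and 0.093 to 0.101 among the GL261 vehicle samples. Within 0.5 of naive were 73.4% of the genes in U87-MG vehicle and 48.5% in GL261 vehicle. Pearson's r of the mean levels across genes, given without a test because genes are not independent replicates, was 0.918 between U87-MG vehicle and naive, 0.772 between GL261 vehicle and naive and 0.865 between the 2 tumors. U87-MG vehicle thus stood outside the spread of replicates within a table and nearer to naive than GL261 vehicle. The 4 vehicle samples of the 28 DPI table differed from naive by a median of 0.514 and from GL261 vehicle by 0.257, and the 2-fold rule introduced next separated them from GL261 vehicle for 685 of 9741 genes (7.03%). U87-MG vehicle and naive, also in separate tables, differed by a similar 0.280, with 8.68% of genes called. The part of the table in that difference was not tested.

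By the 2-fold rule 623 genes were higher (6.46% of those compared) and 214 were lower (2.22%) in U87-MG vehicle than in naive. Each list count for U87-MG vehicle below is to be read beside these shares over all genes. The same rule called 1769 genes higher (18.1%) and 1029 lower (10.5%) in GL261 vehicle. The majority of differences in U87-MG vehicle were small: 6566 genes did not overlap between the groups (68.1%), and 5729 of these were under 2-fold. At least 4-fold were 144 of the higher and 33 of the lower genes. The split between directions rests on the scaling. When the tables were scaled on housekeeping genes instead, the median difference of all genes moved to -0.38 and the rule called 350 genes higher and 678 lower. Of the genes called in the main scaling, 598 of 623 and 208 of 214 also lay beyond the naive range in all 6 peptide-treated U87-MG samples of the same table. Those 6 share strain, tumor, pump and table with the vehicle samples that chose the genes, so the agreement is no independent support. The share over all compared genes was not counted.

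**Figure D1:**
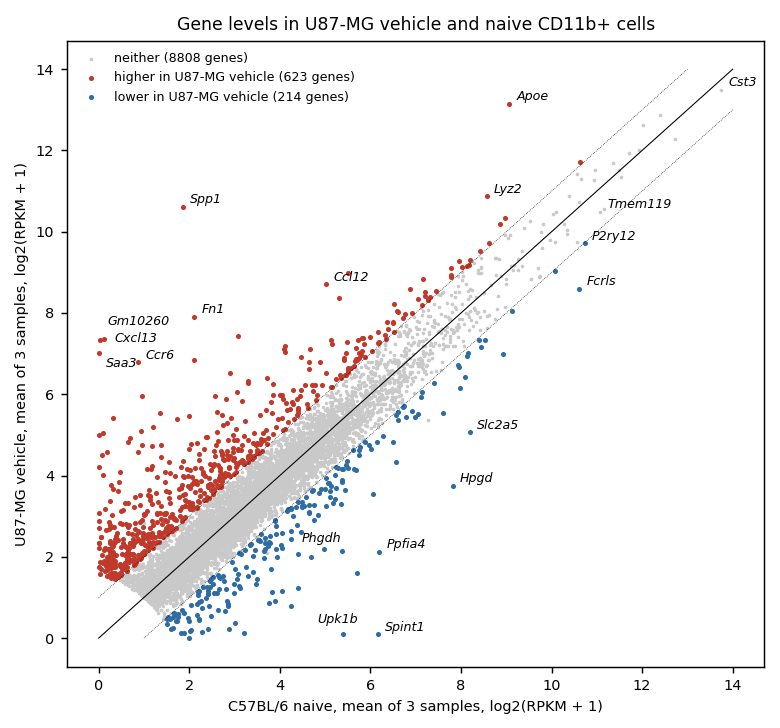
Mean level of each of the 9645 compared genes in C57BL/6 naive (horizontal axis) and U87-MG vehicle (vertical axis), both as log2(RPKM + 1), with the line of equality and dotted lines at a 2-fold difference. The 623 higher genes (red) spread far above the line, up to Spp1 and Apoe, while highly expressed microglial genes such as Cst3 and Tmem119 lie close to it.

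The homeostatic microglia genes were lower but still abundant in the U87-MG samples. Of 30 listed genes all 30 were compared. None was called higher, 11 were called lower, and 26 had all 3 U87-MG vehicle samples below all naive samples, as did 33.1% of all genes compared. Their median difference from naive was -0.73, beside a median of 0.0043 over all genes, and -2.99 in GL261 vehicle. In bulk RNA, fewer cells of a type and less RNA per cell cannot be told apart. The summed RPKM of the list was 37424 to 40381 in naive, 24392 to 31239 in U87-MG vehicle and 5018 to 6605 in GL261 vehicle samples. In 27 of the 30 genes all 3 U87-MG vehicle samples lay above all 3 GL261 vehicle samples, against 37.3% of all genes. The 2-fold rule separated the 2 tumors for 1970 of 9839 genes (20.0%).

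Of the genes most used to define resting microglia, P2ry12 passed the 2-fold rule and Tmem119 and Cx3cr1 did not. The P2ry12 call was close, at -1.03, and leans on the lowest U87-MG vehicle sample. P2ry12, the purinergic receptor that steers microglial processes to damage (ENSMUSG00000036353, chr3:59216272-59262871 in GRCm38, the mm10 build, as for the coordinates that follow), measured 1714, 1715 and 1670.4 RPKM in naive and 791, 1030.2 and 705 RPKM in U87-MG vehicle samples, a log2 difference of -1.03. In GL261 vehicle it measured 126, 86.6 and 143 RPKM, a difference of -3.86. The U87-MG samples lay between both groups and overlapped neither. Tmem119, a membrane protein used as a microglial marker, measured 2206, 2284 and 1996 RPKM in naive and 1430.4, 1672 and 1205 RPKM in U87-MG vehicle, -0.60 on the log2 scale against -3.14 in GL261 vehicle. Cx3cr1, the fractalkine receptor, measured 2408, 2285 and 2148 RPKM in naive and 1564, 1646 and 1278 RPKM in U87-MG vehicle, a difference of -0.61 against -3.19 in GL261 vehicle. Both genes were lower in every U87-MG sample than in every naive sample, but by less than 2-fold. Csf1r, the receptor on which microglia depend for survival, differed by -0.21. Sparc, a secreted matrix protein, measured 1261, 1255 and 1203 RPKM in naive and 1094, 1453 and 933 RPKM in U87-MG vehicle and overlapped, whereas in GL261 vehicle it was 155, 100.3 and 156 RPKM.

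Other members were far lower. Upk1b, a uroplakin of the tetraspanin family (ENSMUSG00000049436, chr16:38773184-38800328), measured 39.8, 40.2 and 42.7 RPKM in naive and 0.0515, 0.132 and 0.0412 RPKM in U87-MG vehicle, so it was all but missing from the U87-MG samples. Its level in GL261 vehicle was 2.166, 2.29 and 3.35 RPKM, above U87-MG vehicle. Slc2a5, the fructose transporter GLUT5, measured 306, 289 and 285 RPKM in naive and 32.1, 39.7 and 25.8 RPKM in U87-MG vehicle, 9.03-fold lower in the mean. Fcrls, an Fc receptor-like scavenger protein largely restricted to microglia, measured 1633, 1539 and 1530.0 RPKM in naive and 391, 404 and 368 RPKM in U87-MG vehicle. Gpr34, a lysophosphatidylserine receptor, measured 485, 469 and 504 RPKM in naive and 109.7, 154 and 116 RPKM in U87-MG vehicle. These 3 had log2 differences of -3.16, -2.01 and -1.95, with tight U87-MG samples far below the naive ones. The remaining called members were Cd164, a sialomucin (-1.83), Crybb1, a crystallin (-1.67), Entpd1, the ectonucleotidase CD39 (-1.30), Olfml3 (-1.10), Selplg, the selectin ligand PSGL-1 (-1.06), and Ecscr (-1.06). Csf3r, the G-CSF receptor, went the other way: it measured 139.8, 119.8 and 127 RPKM in naive and 229.6, 232 and 204 RPKM in U87-MG vehicle, higher without overlap but under 2-fold.

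**Figure D2:**
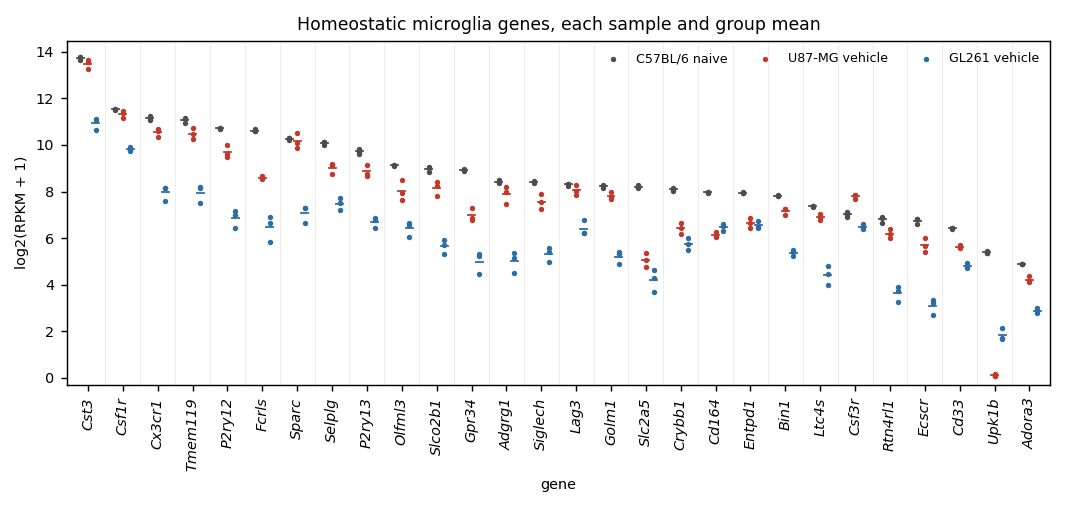
Level of 28 homeostatic microglia genes as log2(RPKM + 1) in each C57BL/6 naive (grey), U87-MG vehicle (red) and GL261 vehicle (blue) sample, 3 per group, with bars at the group means. In 25 of them the U87-MG samples all sit above the GL261 samples, and Upk1b is the gene furthest below naive in U87-MG vehicle.

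The list of lineage transcription factors was mixed. Of 20 compared, 3 were called higher and 3 lower in U87-MG vehicle, against 5 and 8 in GL261 vehicle. The median was -0.24 in U87-MG vehicle and -0.02 in GL261 vehicle. Rises and falls cancel in this signed median, so it does not measure the distance from naive. Sall1, a zinc finger factor that maintains microglial identity, measured 277, 286 and 278 RPKM in naive, 133, 129 and 105 RPKM in U87-MG vehicle and 31.3, 25.7 and 29.9 RPKM in GL261 vehicle. U87-MG vehicle thus kept an intermediate level of Sall1, with a log2 difference of -1.20 from naive. Sall3, its paralog, and Maf, a leucine zipper factor of tissue macrophages, were also lower (-1.25 and -1.36). Spi1, which encodes PU.1, and Irf8, both needed for the myeloid lineage, differed by -0.07 and -0.22. The 3 called higher were Irf7, an interferon-induced regulator (2.32, and 6.79 in GL261 vehicle), Bhlhe40 (1.46 and 4.97) and Cebpb, a factor of inflammatory macrophages (1.25 and 3.29). General myeloid genes were expressed in all samples: none of 12 was called in either direction, and their median was 0.05, which turned negative under housekeeping scaling. Ptprc, the leukocyte antigen CD45, differed by 0.75, Itgam, the sorted antigen CD11b, by 0.70, and Aif1, which encodes IBA1, by 0.50. The GEO labels name the tumor line as the cell type of these samples, while the levels of Itgam, Ptprc and the microglial genes are those of mouse myeloid cells.

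The most abundant transcripts were largely shared with naive cells. Of the 20 genes of highest RPKM in naive, 16 were among the 20 highest in U87-MG vehicle and 9 among the 20 highest in GL261 vehicle. Cst3, the protease inhibitor cystatin C, ranked first in both naive and U87-MG vehicle. Tmem119 moved from rank 11 in naive to rank 21 and Cx3cr1 from rank 10 to rank 20, while in GL261 vehicle they ranked 211 and 205. P2ry12 moved from rank 14 to rank 40 and Fcrls from rank 17 to rank 87, against ranks 460 and 603 in GL261 vehicle. Apoe, the apolipoprotein of brain lipid transport, moved from rank 48 to rank 2, and Spp1 from rank 7734 to rank 19.

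**Figure D3:**
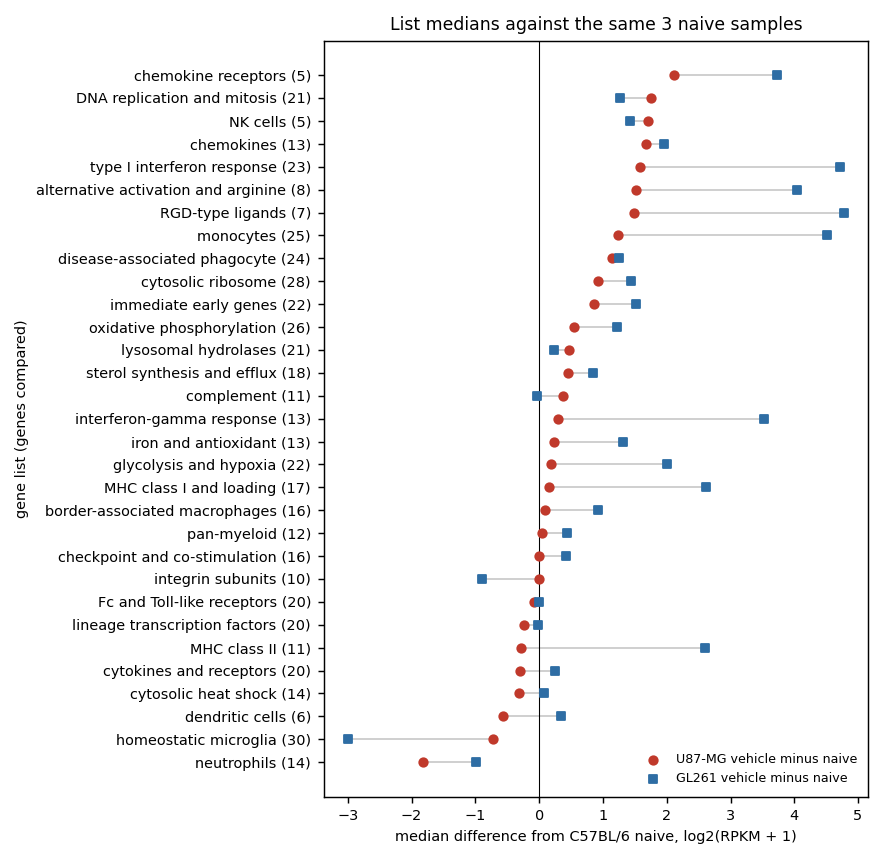
Median log2(RPKM + 1) difference from the same 3 C57BL/6 naive samples for U87-MG vehicle (red circles) and GL261 vehicle (blue squares), for each gene list with its number of compared genes in parentheses. The homeostatic list lies at -0.73 in U87-MG vehicle and -2.99 in GL261 vehicle, and the monocyte, interferon and MHC lists lie much further right in GL261 vehicle.

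The largest of all differences was that of Spp1, which encodes osteopontin, a secreted ligand of integrins and CD44 (ENSMUSG00000029304, chr5:104435118-104441050). It measured 2.75, 2.22 and 2.92 RPKM in naive and 1473, 1359 and 1867 RPKM in U87-MG vehicle, 596-fold higher in the mean and 8.75 on the log2 scale. GL261 vehicle measured 161, 75.5 and 88.7 RPKM, so every U87-MG sample lay above every GL261 sample. Apoe measured 452, 566 and 584 RPKM in naive and 11380.5, 6986 and 8799 RPKM in U87-MG vehicle, 17.0-fold higher, with GL261 vehicle at 5394, 3219.6 and 2635 RPKM. Apoc1, a neighbouring apolipoprotein gene, measured 0.689, 0.733 and 0.433 RPKM in naive and 26.4, 24.6 and 37.4 RPKM in U87-MG vehicle.

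The list of genes that microglia turn on around damage and plaques had 12 of 24 members higher and 1 lower, with a median of 1.14 in U87-MG vehicle and 1.26 in GL261 vehicle. The lists were drawn up with earlier results of these data known, so such counts are descriptions. Ch25h, which makes 25-hydroxycholesterol, differed by 4.17, Axl, a receptor kinase for dying cells, by 3.00, Cst7, the inhibitor cystatin F, by 2.97, and Lyz2, lysozyme, by 2.26. In GL261 vehicle the same 4 genes differed by 2.31, 4.04, 3.15 and 3.62. Lgals3, galectin-3, measured 7.68, 6.45 and 6.26 RPKM in naive and 21.2, 22.4 and 24.7 RPKM in U87-MG vehicle but 532, 565 and 511 RPKM in GL261 vehicle. Trem2, the lipid-sensing receptor, measured 255, 263 and 224 RPKM in naive and 202, 224 and 177 RPKM in U87-MG vehicle and overlapped. Cd9, a tetraspanin, was the 1 member called lower (-1.10). Clec7a, a beta-glucan receptor that the annotation holds as a polymorphic pseudogene and that was therefore not among the compared genes, measured 11.5, 10.4 and 12.5 RPKM in naive and 37.3, 45.3 and 61.7 RPKM in U87-MG vehicle.

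Ligands of the RGD-binding integrins, the axis the peptide of the study addresses, differed more than the integrins themselves. Of 7 ligand genes compared 4 were higher. Fn1, fibronectin, measured 3.79, 2.72 and 3.39 RPKM in naive, 189, 245 and 281 RPKM in U87-MG vehicle and 257, 226 and 172 RPKM in GL261 vehicle. Both tumor groups lay far above naive. Tgfbi, a TGF-beta-induced matrix protein, differed by 2.06 and Adam9, a membrane protease, by 1.48. Thbs1, thrombospondin, measured 5.48, 5.15 and 5.02 RPKM in naive and 8.71, 11.7 and 11.96 RPKM in U87-MG vehicle, a difference of 0.91 that missed 2-fold. Of 10 integrin subunits none was higher by the rule and Itga9 was lower (-1.38). Itgav, the alpha-v subunit, measured 33.0, 31.8 and 31.5 RPKM in naive and 16.7, 17.3 and 17.8 RPKM in U87-MG vehicle, lower in every sample (-0.86 on the log2 scale). Its partner Itgb3 measured 26.5, 25.8 and 27.2 RPKM in naive, 17.6, 25.7 and 19.0 RPKM in U87-MG vehicle and 4.33, 2.34 and 3.56 RPKM in GL261 vehicle. Itgb5, the other alpha-v partner, differed by -0.19 in U87-MG vehicle and -1.95 in GL261 vehicle.

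Markers of blood monocytes were higher than in naive and far below the GL261 level. Of 25 genes 17 were called higher, none lower, with a median of 1.24 in U87-MG vehicle and 4.51 in GL261 vehicle. In 24 of the 25 genes all U87-MG vehicle samples lay below all GL261 vehicle samples, against 37.1% of all genes. Their summed RPKM was 133 to 139 in naive, 621 to 785 in U87-MG vehicle and 5569.6 to 6412 in GL261 vehicle. GL261 vehicle and naive stand in 1 table, where a test was possible, here on RPKM without further scaling. At an adjusted p threshold of 0.05 limma called 3367 genes higher (34.6%) and 4690 lower (48.2%), and all 25 monocyte genes were higher. With median-of-ratios scaling limma called 3975 genes higher and 3910 lower, so the split between directions rests on the scaling here too. The missing dimension in that table means its p-values may be too small.

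Of the list, 8 genes were not called, and 4 of these overlapped naive: Ly6c2, Chil3, S100a11 and Ear2. Ly6c2, which marks inflammatory monocytes, measured 1.33, 1.79 and 0.952 RPKM in naive and 1.53, 2.55 and 1.77 RPKM in U87-MG vehicle and overlapped, while GL261 vehicle measured 209, 349 and 374 RPKM. Chil3, a chitinase-like protein of monocytes and alternatively activated macrophages, measured 6.91, 10.7 and 11.7 RPKM in naive and 7.17, 6.29 and 5.51 RPKM in U87-MG vehicle, also with overlap. Ccr2, the receptor that draws monocytes to Ccl2, was higher by 1.67, from 5.56, 5.70 and 5.77 RPKM in naive to 18.4, 19.5 and 22.9 RPKM in U87-MG vehicle, and Plac8 by 2.04. The members that differed most were Fn1, Vim, the intermediate filament vimentin (2.96), and Emilin2 (2.65).

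Genes of arginine use and alternative activation showed the same distance. Arg1, arginase 1, measured 0.109, 0.0365 and 0.0744 RPKM in naive and 0.843, 0.203 and 0.903 RPKM in U87-MG vehicle, under 1 RPKM in all 6 samples, against 959, 1412 and 230.5 RPKM in GL261 vehicle. Of 8 genes of this list compared, 5 were higher and 1 lower, with medians of 1.53 in U87-MG vehicle and 4.05 in GL261 vehicle. Ass1, argininosuccinate synthase, differed by 2.67 and Il1rn, the interleukin-1 receptor antagonist, by 1.91. Retnla, the secreted protein Fizz1, was the 1 gene called lower (-1.69).

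Type I interferon response genes formed a group with a difference of its own. Of 23 compared, 18 were higher and none lower in U87-MG vehicle, with a median of 1.57. In GL261 vehicle the median was 4.72, and in 22 of the 23 genes all U87-MG samples lay below all GL261 samples, against 37.1% of all genes. Isg15, a ubiquitin-like protein, measured 6.65, 7.83 and 6.36 RPKM in naive, 20.6, 33.1 and 31.9 RPKM in U87-MG vehicle and 503, 634 and 692 RPKM in GL261 vehicle. Cxcl10, a chemokine for activated T cells and NK cells, measured 1.04, 1.29 and 0.928 RPKM in naive and 9.85, 23.1 and 17.3 RPKM in U87-MG vehicle, 3.02 on the log2 scale. The antiviral genes Ifit3, Oas1a and Rsad2 differed by 2.10, 2.05 and 1.56. Ifi44 alone of the list was higher in U87-MG vehicle than in GL261 vehicle, with 7.62, 20.9 and 16.7 RPKM against 4.78, 6.19 and 6.82 RPKM.

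The promoters of these genes hold letters that the family of interferon-regulated genes is known for. The interferon-stimulated response element, bound by the ISGF3 complex, contains GAAANNGAAA. This motif was searched on both strands, so also as TTTCNNTTTC, in RefSeq windows of 250 bases before to 50 after each gene's start in build GRCm38.p6, with overlapping matches merged. It stood in 11 of the 17 type I interferon genes that had a window (64.7%), against 1079 of 27025 genes in all (3.99%), 44 of 469 genes called higher (9.38%) and 13 of 161 called lower (8.07%). It stood in 0 of 19 homeostatic microglia genes and in 0 of 20 replication genes. A match is a description of the letters and not a measured binding site. The stretches of 6 genes of the group are shown with the match in capitals, read in the direction of transcription.
Isg15: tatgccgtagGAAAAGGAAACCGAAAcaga
Cxcl10: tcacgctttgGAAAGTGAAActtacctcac
Ifit1: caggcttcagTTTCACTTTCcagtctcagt
Ifit3: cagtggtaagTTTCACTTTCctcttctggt
Rsad2: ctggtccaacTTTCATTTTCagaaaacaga
Oas1a: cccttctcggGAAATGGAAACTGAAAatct

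These 30-base stretches lie, for Isg15, at chr4:156200877-156200906 on the minus strand, 78 bases before the start; for Cxcl10, at chr5:92349083-92349112 on the minus strand, 213 bases before it; and for Ifit1, at chr19:34640775-34640804 on the plus strand, 104 bases before it. Those of Ifit3 (chr19:34583363-34583392, plus strand), Rsad2 (chr12:26456553-26456582, minus strand) and Oas1a (chr5:120907526-120907555, minus strand) lie 156, 120 and 20 bases before the start. Isg15 and Oas1a carry the repeat GAAA in a run of 3, and all 6 genes shown were higher in U87-MG vehicle, between 1.56 for Rsad2 and 3.02 for Cxcl10 on the log2 scale. Of the 13 genes of the group with a window that were called higher, 8 held the motif. Bst2, which also carries the run of 3, Ifih1 and Ddx58 held it too but were not called (0.39, 0.15 and -0.18).

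Genes that answer mainly to interferon-gamma, a cytokine of T cells and NK cells, and the antigen presentation genes did not share this pattern. Of 13 interferon-gamma genes 3 were higher and 2 lower in U87-MG vehicle, with a median of 0.30, negative under housekeeping scaling, against 3.52 in GL261 vehicle. The motif given above stood in 10 of the 13 genes of the full list that had a promoter window (76.9%), which are not the same 13 as those compared. Gbp2, a guanylate-binding protein, measured 4.30, 4.35 and 4.53 RPKM in naive and 15.5, 13.3 and 14.2 RPKM in U87-MG vehicle, while Irgm2, an immunity-related GTPase, was lower (-1.63). Of 11 MHC class II genes 2 were higher and 1 lower, with a median of -0.29 in U87-MG vehicle and 2.61 in GL261 vehicle. H2-Aa, an antigen-presenting class II chain, measured 77.1, 87.3 and 89.5 RPKM in naive, 58.3, 74.8 and 63.9 RPKM in U87-MG vehicle and 1783, 1984 and 1999.9 RPKM in GL261 vehicle. The U87-MG samples were thus at or below the naive level, and Cd74, the class II chaperone, followed with -0.29 against 4.41. The members called were the peptide-loading genes H2-DMb2 (1.92), H2-Ob (1.16) and H2-Oa (-1.87). Of 17 class I genes 3 were higher, the non-classical H2-Q4, H2-Q6 and H2-Q7 (1.91, 1.74 and 1.70), which are near copies of one another. The median of that list was 0.15, which changed sign under housekeeping scaling, and 2.62 in GL261 vehicle.

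**Figure D4:**
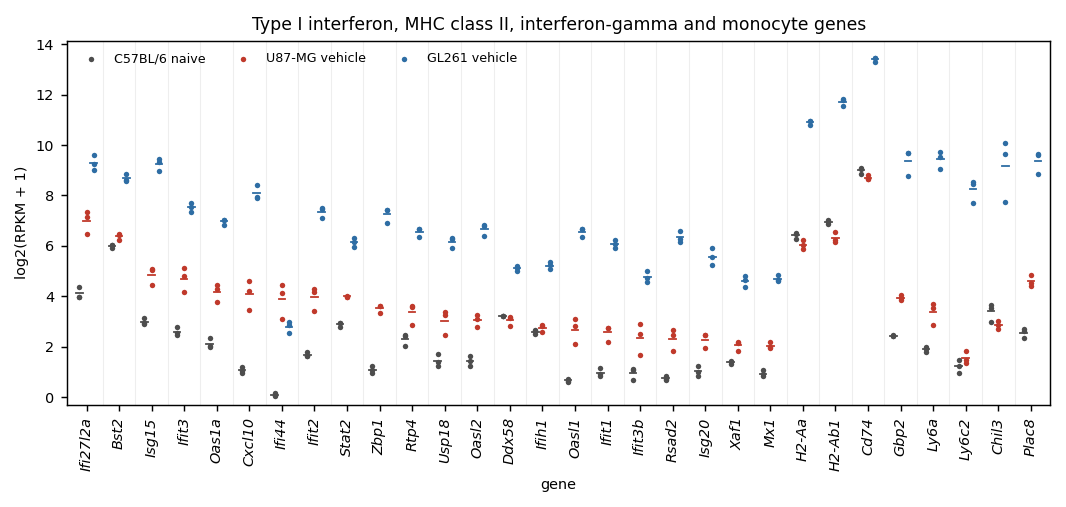
Level as log2(RPKM + 1) of the type I interferon genes (left, up to Mx1) and of MHC class II, interferon-gamma and monocyte genes (from H2-Aa on) in each C57BL/6 naive (grey), U87-MG vehicle (red) and GL261 vehicle (blue) sample, 3 per group, with bars at the group means. The U87-MG samples lie between both other groups for most interferon genes, and at the naive level for H2-Aa, Cd74, Ly6c2 and Chil3.

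Chemokines and their receptors contained some of the largest differences. Of 13 chemokines 9 were higher and none lower, with a median of 1.67. Cxcl13, which attracts B cells, was at most 0.240 RPKM in naive and measured 394, 42.7 and 55.8 RPKM in U87-MG vehicle, with 1 sample several-fold above the other two. Ccl12, a ligand of Ccr2, measured 35.5, 30.9 and 28.6 RPKM in naive, 311, 508 and 428 RPKM in U87-MG vehicle and 179, 129.99 and 150.1 RPKM in GL261 vehicle, so the U87-MG samples were the highest. Ccl5, a chemokine for T cells and monocytes, differed by 4.15 in U87-MG vehicle and 7.63 in GL261 vehicle, and Ccl8 by 2.62 and 6.09. Cxcl14 measured 0.943, 0.711 and 1.13 RPKM in naive and 21.0, 20.6 and 36.0 RPKM in U87-MG vehicle. The inflammatory chemokines Ccl2, Ccl3 and Ccl4 differed by 1.67, 1.52 and 1.82.

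Of 5 chemokine receptors 4 were higher. Ccr6, the receptor of Ccl20 (ENSMUSG00000040899, chr17:8236043-8257141), measured 0.966, 0.937 and 0.571 RPKM in naive, 142, 126 and 60.3 RPKM in U87-MG vehicle and 0.292, 0.223 and 0.197 RPKM in GL261 vehicle. It was 14.6 to 142 RPKM over all 9 U87-MG samples of the table and at most 0.341 RPKM in the 28 DPI vehicle samples. Ccr1 differed by 2.99, Ccrl2 by 2.11 and Cxcr4, the receptor of Cxcl12, by 1.70.

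Among cytokines and their receptors 5 of 20 genes were higher and 2 lower. Il1b, interleukin-1 beta, measured 15.2, 15.8 and 18.1 RPKM in naive, 141, 150.4 and 143 RPKM in U87-MG vehicle and 506, 507 and 544 RPKM in GL261 vehicle. Tnf, tumor necrosis factor, measured 5.90, 5.32 and 4.08 RPKM in naive and 24.9, 32.5 and 39.7 RPKM in U87-MG vehicle. Both inflammatory cytokines were above naive in every sample. Osm, oncostatin M, and the GM-CSF receptor chains Csf2ra and Csf2rb were higher by 1.31, 1.92 and 1.64, while Tgfbr1, a receptor for TGF-beta, and Il15 were lower (-1.19 and -1.02). Saa3, an acute phase protein made by macrophages, was at most 0.0280 RPKM in naive and measured 154, 61.8 and 172 RPKM in U87-MG vehicle.

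In the immune checkpoint list 3 of 16 genes were called higher and none lower, with a median of 0.00, negative under housekeeping scaling. That median holds shifts both ways: 7 genes lay above and 7 below naive without overlap, against 68.1% of all genes in either direction. Cd80, Vsir, Cd86 and Tnfsf9 differed by -0.87, -0.84, -0.81 and -0.77. Cd274, which encodes PD-L1, measured 4.01, 3.46 and 2.87 RPKM in naive, 8.48, 6.20 and 7.62 RPKM in U87-MG vehicle and 81.3, 138 and 119 RPKM in GL261 vehicle. Pdcd1, which encodes PD-1 and is not in that list, measured 1.91, 1.46 and 1.39 RPKM in naive, 20.5, 31.8 and 26.0 RPKM in U87-MG vehicle and 1.84, 2.16 and 3.44 RPKM in GL261 vehicle. It was higher in U87-MG vehicle than in both other groups without overlap. The higher members of the list were Cd244a, with 0.530, 0.409 and 0.425 RPKM in naive and 7.10, 8.10 and 8.35 RPKM in U87-MG vehicle, Pilra (1.52) and the co-stimulatory receptor Cd40 (1.45).

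Most compared genes of DNA replication and mitosis were higher. Of 25 listed, 21 were compared, and of these 18 were called higher and none lower, with a median of 1.75 in U87-MG vehicle and 1.27 in GL261 vehicle. In 13 of the 21 all U87-MG vehicle samples lay above all GL261 vehicle samples, against 37.3% of all genes. Members such as Mki67 passed the filter of 1 RPKM only through the U87-MG samples, so these counts were partly fixed by it. Over all 25 genes, without the filter, the summed RPKM was 67.5 to 71.1 in naive, 163 to 232 in U87-MG vehicle and 128 to 163 in GL261 vehicle. Mki67, the proliferation antigen Ki-67, measured 0.223, 0.321 and 0.421 RPKM in naive, 5.36, 4.75 and 4.98 RPKM in U87-MG vehicle and 3.21, 5.78 and 2.93 RPKM in GL261 vehicle. Ccnb2, a mitotic cyclin, differed by 2.73, Rrm2, a ribonucleotide reductase subunit, by 2.35, Top2a, a topoisomerase, by 2.20, and Mcm5, a part of the replicative helicase, by 2.11. The levels themselves were low, and Pcna, the polymerase clamp (0.78), Tyms (0.71) and Mcm3 (0.41) did not pass the 2-fold rule.

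Ribosomal and respiratory genes leaned upward by small steps. Of 28 cytosolic ribosomal protein genes 11 were higher and none lower, with a median of 0.92. Of 26 oxidative phosphorylation genes 1 was higher, the cytochrome oxidase subunit gene Cox6b1 (1.04), with a list median of 0.55. Under housekeeping scaling the ribosomal median was 0.47 and the oxidative phosphorylation median 0.15. The housekeeping reference genes had a median of 0.45 themselves. Glycolysis and hypoxia genes had 1 of 22 higher, Ndrg1 (1.12), and 1 lower, the collagen prolyl hydroxylase P4ha1 (-1.10). Their median was 0.19, which changed sign under housekeeping scaling, against 2.00 in GL261 vehicle. Ldha, lactate dehydrogenase, measured 52.3, 50.6 and 48.5 RPKM in naive, 84.8, 97.1 and 104 RPKM in U87-MG vehicle and 250.04, 281 and 294 RPKM in GL261 vehicle. The glucose transporter gene Slc2a1 overlapped between naive and U87-MG vehicle (-0.07) and differed by 2.16 in GL261 vehicle.

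Sterol and lysosomal genes had few called members: 1 of 18 and 1 of 21 were higher and none lower, beside 6.46% and 2.22% of all genes compared. The sterol list had a median of 0.44, which was 0.04 under housekeeping scaling. In the lysosomal list 1 of 21 was higher, the alpha-galactosidase Gla (1.59). In the iron and antioxidant list 3 of 13 were higher, the ferritin chains Fth1 (1.11) and Ftl1 (1.35) and the heme oxygenase Hmox1 (1.13), and the iron exporter Slc40a1 was lower (-1.09). The complement list had 4 of 11 higher and 1 lower. C4b measured 3.99, 8.17 and 7.09 RPKM in naive and 67.5, 118 and 89.4 RPKM in U87-MG vehicle, and C3, the central complement component, 3.15, 3.69 and 3.57 RPKM and 30.9, 20.2 and 28.8 RPKM. The microglial C1q chains C1qa, C1qb and C1qc differed by 0.49, 0.09 and 0.03. Among 20 Fc and Toll-like receptor genes Fcgr4 (2.38) and Tlr8 (1.43) were higher and Tlr5 was lower (-2.04).

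Immediate early genes, which respond within minutes and also to tissue dissociation, were higher in 10 of 22 cases and lower in none, with a median of 0.86 in U87-MG vehicle and 1.52 in GL261 vehicle. Nr4a1, an orphan nuclear receptor, differed by 1.73, Ier2 by 1.55, Atf3 by 1.41 and Fos by 1.31. The heat shock genes Hspa1a and Hspa1b were lower: Hspa1a measured 6.23, 14.6 and 13.97 RPKM in naive and 5.46, 0.640 and 2.67 RPKM in U87-MG vehicle, with a wide spread in both groups. The other 12 heat shock genes compared were not called. The part of sample handling in the differences given here was not tested.

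Markers of other cells moved as well. Neutrophil genes were lower in U87-MG vehicle: 9 of 14 were called lower and 2 higher, with a median of -1.82, and their summed RPKM was 296 to 445 in naive and 64.8 to 102 in U87-MG vehicle. Ngp, a neutrophil granule protein, measured 34.0, 64.4 and 55.3 RPKM in naive and 4.14, 0.440 and 1.52 RPKM in U87-MG vehicle, and the granule genes Camp and Ltf differed by -3.47 and -2.99. S100a8, an abundant calcium-binding protein of neutrophils, measured 53.8, 70.8 and 73.3 RPKM in naive and 8.85, 9.36 and 13.8 RPKM in U87-MG vehicle. The higher members were Clec4d and Trem1, which monocytes and macrophages also express (1.16 and 1.08). Of 15 NK cell genes 5 were compared and 4 of these were higher, at low levels. The summed RPKM of all 15 was 1.88 to 2.86 in naive and 10.99 to 31.5 in U87-MG vehicle. The NK receptor gene Klrd1 went the other way, with 1.41, 1.85 and 1.74 RPKM in naive and 0.356, 0.299 and 0.501 RPKM in U87-MG vehicle, a difference of -0.94 on the log2(RPKM + 1) scale. The granzyme gene Gzma measured 0.135, 0.330 and 0.206 RPKM in naive and 5.57, 4.20 and 11.8 RPKM in U87-MG vehicle. It passed the filter of 1 RPKM only through the U87-MG samples. The NK receptor genes Ncr1 and Klrb1c averaged under 1 RPKM over the 6 samples and were not compared. All 15 T cell genes were under 1 RPKM in all 6 samples, the T cell receptor component Cd3e at no more than 0.0250 RPKM in naive and close to 0 in U87-MG vehicle.

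Border-associated macrophages, which line the vessels and meninges, had a mixed list: 7 of 16 genes were higher and 3 lower. Siglec1, a sialic acid receptor also induced by interferon, measured 2.56, 3.17 and 3.23 RPKM in naive and 34.7, 37.3 and 58.6 RPKM in U87-MG vehicle, and Colec12, a scavenger receptor, 0.381, 0.692 and 0.611 RPKM and 28.2, 26.5 and 26.8 RPKM. Mrc1, the mannose receptor, overlapped with 22.5, 31.5 and 32.2 RPKM in naive and 31.8, 33.3 and 35.6 RPKM in U87-MG vehicle, and Lyve1 differed by -0.80. Dendritic cell genes were higher in 0 and lower in 1 of 6 cases. Of the B cell list Cd22, a lectin that microglia also express, was higher (1.65) and Cd79b lower (-1.69). Genes of brain cells were few and low: among oligodendrocyte genes 0 of 4 were higher and 0 lower, and Tubb3 of neurons (1.63) and Pecam1 of endothelium and leukocytes (1.14) were higher. Of 3 astrocyte genes compared, Gfap was higher (1.79), the glutamate transporter gene Slc1a3 differed by -0.82 and Aldoc by 0.01, and the summed RPKM of the list was 22.6 to 23.8 in naive and 15.7 to 21.2 in U87-MG vehicle. Gfap measured 0.200, 0.137 and 0.167 RPKM in naive and 3.96, 2.81 and 2.44 RPKM in U87-MG vehicle. Of the Y-linked genes 4 were compared and none was called. The part of other cells in the myeloid gene differences was not tested.

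Among the 15 genes with the largest falls were several that no list held. Hpgd, which inactivates prostaglandins, measured 214, 227 and 233 RPKM in naive, 13.7, 13.4 and 10.1 RPKM in U87-MG vehicle and 16.4, 11.6 and 19.7 RPKM in GL261 vehicle. S1pr1, a sphingosine-1-phosphate receptor, measured 32.0, 31.2 and 28.5 RPKM in naive and 3.53, 3.70 and 3.40 RPKM in U87-MG vehicle, and Tmem204 23.7, 25.6 and 24.7 RPKM and 2.78, 4.06 and 2.13 RPKM. All 3 were further below naive in U87-MG vehicle than P2ry12, Gpr34 and Fcrls, and in GL261 vehicle they differed by -3.77, -3.31 and -3.71. Phgdh, the first enzyme of serine synthesis, differed by -3.26, but 38.3% of its 50-base words also occur in Gm7901. Lefty1, a TGF-beta family inhibitor, differed by -3.08 and Fcrl1 by -2.92. Ppfia4, which encodes a liprin, measured 75.9, 72.1 and 68.6 RPKM in naive and 3.48, 4.04 and 2.53 RPKM in U87-MG vehicle, but 3.18 to 69.9 RPKM in the 6 peptide-treated samples, so its level was not stable within the U87-MG table. Among the largest rises outside the lists were Hcar2, the receptor of nicotinic acid and ketone bodies (4.74), Lgals1, galectin-1 (4.36), and Adgrg5, an adhesion receptor (4.41).

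Some of the most extreme genes separated the nude mice of the U87-MG table from every other sample. By a rule chosen after the values were seen, 7 genes were at least 5 RPKM in all 9 U87-MG samples, peptide arms included, and under 1 RPKM in all 16 other samples, that is all samples of the C57BL/6 table and the 28 DPI vehicle samples, and 1 gene did the reverse. Spint1, a serine protease inhibitor (ENSMUSG00000027315, chr2:119237362-119249527), was the reverse case, with 72.3, 71.8 and 67.4 RPKM in naive, 117 to 148 RPKM in GL261 vehicle, 143 to 184 RPKM in the 28 DPI vehicle samples and at most 0.107 RPKM in U87-MG vehicle. Gm10260, a ribosomal protein S18-like gene, was at most 0.0812 RPKM in naive and measured 146, 178 and 160.4 RPKM in U87-MG vehicle. Ifi202b, an interferon-inducible DNA-binding protein, was close to 0 in naive and measured 24.4, 29.1 and 39.7 RPKM in U87-MG vehicle. The others were Ccr6, Gm8797, Eno1b, Mxra8 and Ifi44l. These on-or-off levels set the U87-MG samples apart from all samples of the C57BL/6 table, with and without tumor. Tumor, strain and table cannot be told apart for these genes. The 28 DPI samples are labelled nude, and their likeness to the C57BL/6 samples was read from these same 8 genes, so their place here is no separate result.

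Near copies make several of these genes uncertain. Of the 50-base words of Gm10260, 56.6% occur in Rps18, of Eno1b 76.4% in Eno1, of Gm8797 84.1% in Gm1821, and of Tpm3-rs7, another of the largest rises, 69.4% in Tpm3. Whether reads of the parent genes were counted to these copies was not tested. Spint1, Upk1b, Ccr6, Ifi202b and Cxcl13 shared no such word with another gene. H2-Ea-ps, an MHC class II pseudogene and so not among the compared genes, was close to 0 in naive and measured 30.6, 46.0 and 44.4 RPKM in U87-MG vehicle. Wdfy1, an adaptor protein, measured 1.81, 1.84 and 2.13 RPKM in naive and 10.2, 9.29 and 10.1 RPKM in U87-MG vehicle, with GL261 vehicle at 1.18, 1.23 and 1.29 RPKM.

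**Figure D5:**
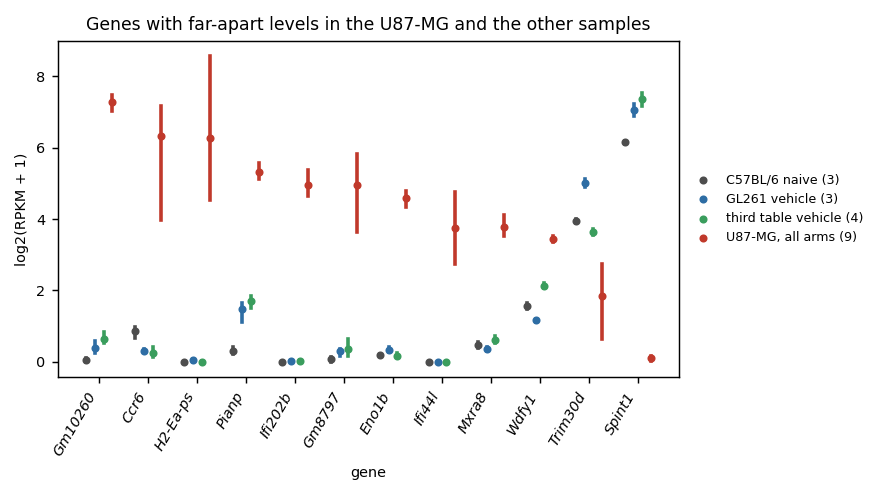
Mean (points) and range from lowest to highest sample (lines) of genes with far-apart levels, as log2(RPKM + 1), in C57BL/6 naive, GL261 vehicle, the 28 DPI vehicle samples of the third table and all 9 U87-MG samples. Gm10260, Ccr6, Ifi202b, Gm8797, Eno1b, Ifi44l and Mxra8 are high in the U87-MG samples only, and Spint1 is missing only there.

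A wider count was taken among the called genes only, so it sets no bound on strain or table differences. The share over all compared genes was not counted. All 9 U87-MG samples lay above all 16 samples of the C57BL/6 table and the 28 DPI vehicle group in 99 of the 623 genes called higher, and below them in 45 of the 214 called lower. For the remaining genes at least 1 of the 16 samples reached or passed some of the 9 U87-MG samples in the direction of the call. The U87-MG vehicle samples also differed among themselves. The median SD over the 3 samples was 0.206 on the log2 scale for the genes called higher, and the widest, chosen after the values were seen, were Cxcl13, Ly6k, Cp, Tsku and Fpr1. Cp, the copper-binding ferroxidase ceruloplasmin, measured 20.2, 3.69 and 7.83 RPKM in the 3 samples, and Fpr1, the formyl peptide receptor, 13.5, 3.20 and 6.35 RPKM, so single-sample values of these genes carry little weight.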

How the data were processed

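CD11b+ cells were profiled by stranded, paired-end sequencing of polyadenylated RNA. The authors removed adapters with Trimmomatic, mapped to mm10 with STAR, counted reads per gene with HTSeq 0.11.1 and used NOISeq, as their methods and the labels state. What they deposited is on the scale of RPKM to which 2 had been added: with 2 taken off, the sum over genes of value times exonic length had nearly the size that the RPKM formula gives in every column. Replicates were not pooled beyond the 2 animals per sample. Between 3.6% and 8.8% of values lay under the constant and were set to 0 on the log scale. Plain RPKM cannot lie below 0, so the values had been adjusted further, in a way that is unknown here. Read counts, and so the depth, are unknown, and no confidence interval for single values was possible. Per sample, 9332 to 9714 protein-coding genes reached 1 RPKM.

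Each table had 54513 rows, and 53807 of them (98.7%) matched the GENCODE annotation of GRCm38. The 3 U87-MG vehicle columns share 1 header, so their numbers are names in column order and do not pair samples. The 10 columns of the 28 DPI table outside its vehicle group were not used. Samples were scaled by medians of ratios, with a pseudocount of 1, and no p-value was computed between tables. GL261 vehicle against naive was tested with limma 3.58.1 in R 4.3.3, without the median-of-ratios scaling, without a replicate block and with Benjamini-Hochberg adjustment. The p-values measure the spread between pools of animals as deposited, which may be too small given the missing dimension. Same-numbered samples of that table did not deviate together (correlations of -0.04, 0.02 and -0.03). Python 3.11.15 with numpy 2.4.6 and pandas 2.3.3 gave the other values. Promoters came from RefSeq sequence of GRCm38.p6 and near copies from GENCODE transcripts. Alternatives were other scalings, pseudocounts, filters, fold thresholds and left-out replicates.

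The members and gene lists were chosen with earlier results of these data known. Named were, per list, the first 3 members, up to 6 with the largest difference past the rule and up to 4 with the highest level, then the 15 largest rises and falls, genes the study names, and up to 6 genes in each direction that differed oppositely in both tumors. Other list members and genes named were chosen after their values were seen. A few list members are counted in their lists but not reported here.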

Additional observations from a re-analysis of the deposited data

Results flagged for a closer look

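For 20 genes the 3 U87-MG vehicle samples lay on one side of the naive samples and the 3 GL261 vehicle samples on the other, each by at least 2-fold. The difference between the tumors was not tested, because the values stand in separately normalised tables, and both differences share the naive samples. In 13 genes U87-MG vehicle was the higher. On the log2 scale, U87-MG vehicle and GL261 vehicle differed from naive by 2.18 and -2.21 for Angptl7, an angiopoietin-like secreted protein, by 1.96 and -1.62 for Oaf, by 1.77 and -1.20 for Lgi4, by 1.66 and -2.73 for Arsb, a lysosomal sulfatase, by 1.44 and -2.38 for Ak1, adenylate kinase, and by 1.31 and -1.77 for Lamb2, a laminin chain. Angptl7 measured 5.22 ± 0.192 RPKM (SD, n = 3) in naive, 28.3, 33.1 and 21.5 RPKM in U87-MG vehicle and 0.606, 0.135 and 0.348 RPKM in GL261 vehicle. For the other higher genes the differences were 1.23 and -1.77 for Zfp69, 1.18 and -1.41 for Cbr2, 1.18 and -1.38 for Tmem176a, 1.06 and -1.97 for Neurl1a, 1.05 and -1.15 for Npnt, 1.05 and -1.63 for Vash1, and 1.03 and -1.73 for Man2a2.

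In 7 genes U87-MG vehicle was the lower. The differences were -1.20 and 4.16 for Ccl24, the eosinophil chemokine eotaxin-2, -1.31 and 1.58 for Atp6v0c, a proton pump subunit, -1.46 and 2.62 for Gbp9, a guanylate-binding protein, and -1.54 and 1.45 for Rpl29, a ribosomal protein gene of which 25.1% of the 50-base words also occur in Gm6344. They were -1.93 and 1.13 for Abcg3, -1.94 and 1.86 for Coro2a, and -2.10 and 1.08 for Trim30d. Ccl24 measured 4.74, 4.23 and 5.35 RPKM in naive, 1.54, 1.67 and 1.34 RPKM in U87-MG vehicle and 268, 492 and 7.22 RPKM in GL261 vehicle. Strain and table cannot be told apart from the tumor in any of these genes.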

How the results depend on the processing

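The counts in U87-MG vehicle against naive rest on the scaling and the thresholds. Housekeeping scaling gave 350 genes higher and 678 lower, so that 34.1% of the called genes were higher in place of 74.4%, and a homeostatic median of -1.17. A pseudocount of 5 gave 277 and 99, a mean of at least 5 RPKM 366 and 141, a log2 difference of at least 2 gave 144 and 33, and no fold threshold 3369 and 3197. With all 9 U87-MG samples the homeostatic median was -0.93. For GL261 vehicle against naive, the filter at 5 RPKM left 2860 genes lower, and median-of-ratios scaling gave 3975 higher and 3910 lower by limma. Without single replicates the counts ranged from 584 to 667 higher and 199 to 229 lower, and the homeostatic median from -0.76 to -0.64. The limma counts then ranged from 3217 to 3304 higher and from 4392 to 4640 lower. None of the 249 named genes past the 2-fold rule changed sign under the 16 settings tried. Chosen for log2 differences of at least 1, they could hardly do so, as housekeeping scaling moved the median of all genes to -0.38. How many kept their call was not counted. Under at least 1 scaling 11 list medians near 0 changed sign. Unknown depth leaves the precision of low genes unmeasured.

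The numbers of the GL261 vehicle and naive samples do not pair them, and with the replicate number as a block limma called 3313 genes higher and 4638 lower, within 1.5 times of the counts without it. No paired analysis was possible for U87-MG vehicle against naive, because the U87-MG columns carry no number.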
